A study of Mus musculus with 12 samples.

Results

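*SmoM2* codes for a form of the Hedgehog receptor component Smoothened that signals without ligand. Lesions that carry *SmoM2* were compared with control eyes across the 770 genes of the nCounter Mouse PanCancer Pathways panel, which counts RNA molecules with color-coded probes and without amplification. The lesion group held 8 samples. Of these, 5 were lesion-bearing eyes of mice with the genotype *Rax-creERT2::Ctnnb1(ex3)Fl/+SmoM2Fl/+* (*RBS*), taken at E18.5 after tamoxifen at E8.5, and 3 were Shh-medulloblastomas (Shh-MBs), cerebellar tumors of *hGFAP-cre::SmoM2Fl/+* mice at 14 days. The reference was 4 eyes of E18.5 *Ctnnb1(ex3)Fl/+SmoM2Fl/+* embryos, which carry both floxed alleles without a Cre driver. These are all 12 samples of the series. A gene was taken as a member when its 8 lesion values were all above or all below its 4 control values, and this held for 108 of 770 genes. For 79 of them it also held after the median of its sample had been subtracted from every log2 value (median centring), and these 79 genes are described first.

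Each sample was a single eye or tumor of 1 animal, and the samples named *RBS* lesions were eyes that bore them. Cre is driven by the *Rax* promoter in retinal precursors of the *RBS* mice and by the human *GFAP* promoter in neural precursors of the Shh-MB mice. *RBS* lesions additionally carry stabilized beta-catenin, the effector of Wnt signaling, and replaced most but not all regular eye structures. Against the control eyes, Shh-MBs differ in organ, age and genotype at once, and the effects of these 3 cannot be told apart. The labels do not give the sex of the animals. The Y-linked gene *Uty* was above 100 in 1 of 4 control eyes, 2 of 5 *RBS* lesions and all 3 Shh-MBs, so sex may differ between the groups too. Genes on the same side in both lesion types are therefore shared by 2 lesions that have *SmoM2* in common and differ in organ, age and *Ctnnb1* allele.

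In the resting state the receptor Patched1 holds Smoothened inactive. Once Smoothened is active, Gli transcription factors turn on targets that include *Gli1* and *Ptch1* itself, while Gli3 mainly acts as a repressor. In the cerebellum, Hedgehog signaling drives the division of granule cell precursors. In the embryonic eye it takes part in patterning and in the division of retinal progenitors, which depend on cyclin D1.

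Depth, taken as total signal over the step between low values, was 335392 to 716684 counts above background. The median signal of a sample was 112 to 125 in control eyes, 130.0 to 139 in *RBS* lesions, against 67.0 to 86.5 in Shh-MBs, so the groups differed in their general level. Between 52 and 123 genes of a sample sat at its lowest value. The deposited values gave a median log2 difference over all 770 genes of 0.02 for the 8 lesions against control eyes, 0.17 for *RBS* lesions alone and -0.22 for Shh-MBs alone. With median centring these medians were 0.16, -0.01 and 0.44. Values below are normalized signals, differences are on the scale of log2(signal + 1), and calls are those of limma at an adjusted *p* under 0.05.

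Markers were read for the labelled tissues. The panel holds 4 of 6 retinal progenitor markers looked for (*Fgf15*, *Ccnd1*, *Hes5* and *Sfrp2*), and their summed signal was 16166 to 21490 in control eyes, 3565 to 5171 in *RBS* lesions, against 3289 to 3582 in Shh-MBs. *Ccnd1* made up most of the sum in control eyes (11228 to 15146) and still measured 2018 to 2419 in the cerebellar Shh-MBs. The sum is therefore not particular to the retina. *Fgf15* measured 74.6 to 152 in *RBS* lesions, against 1.00 to 4.87 in Shh-MBs. All 4 markers are themselves members. Of the markers of cerebellar granule cell precursors the panel holds only *Gli1*, so the label of the tumors could be checked by this gene alone. In these tissue samples, fewer cells of a type and less RNA per cell cannot be told apart.

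In the comparison of 8 lesions with 4 control eyes, 45 genes (5.84%) were called higher and 47 (6.10%) lower. On the deposited scale, 41 genes (5.32%) had all lesion values above and 67 (8.70%) had all lesion values below those of the control eyes. On both scales, 30 genes (3.90%) lay above and 49 (6.36%) lay below. Of these, 27 and 32 were also called by limma, on the same values. The shares on both scales stand beside every list count on both scales given below. Another 13 genes were called higher and 2 lower with groups that overlapped on the deposited scale. The smallest *p*-value that the exact permutation test can give over its 495 splits is 0.00404, two-sided, and all 108 separated genes reach it by construction. The median SD of a gene within the 8 lesions was 0.568, against 0.217 within *RBS* lesions, 0.246 within Shh-MBs and 0.219 within control eyes. This larger spread holds the difference between the lesion types, and genes that moved strongly but unequally in both can miss the call.

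**Figure D1:**
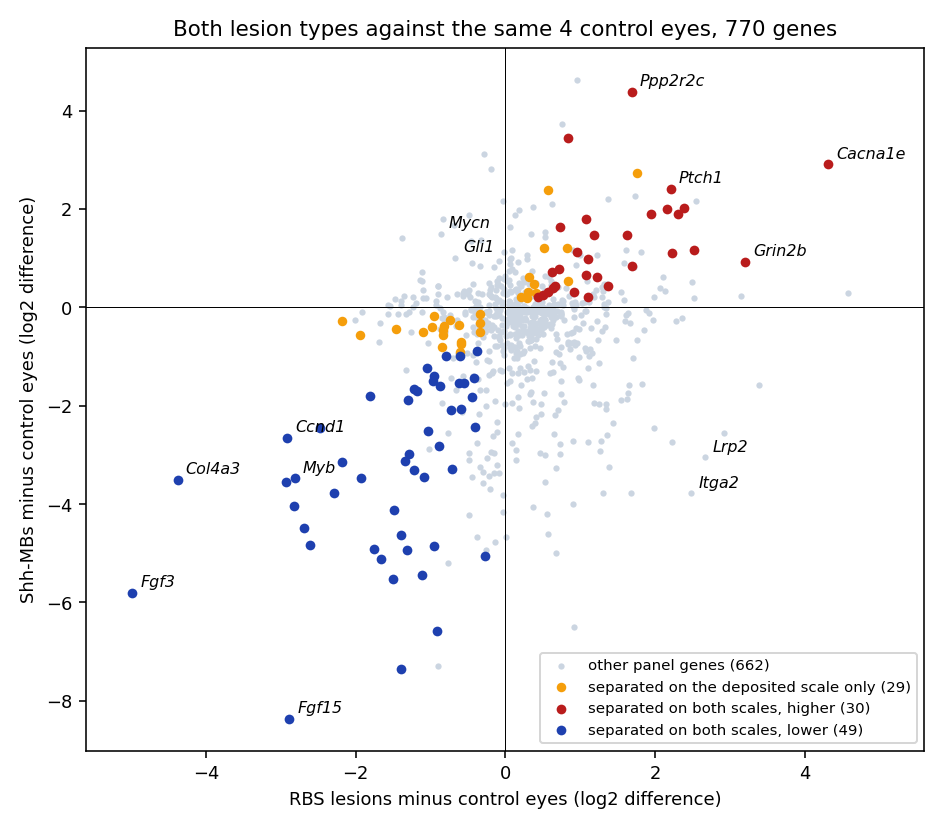
Each point is one of 770 genes, with its mean log2 difference from the 4 control eyes in *RBS* lesions (x axis) and in Shh-MBs (y axis); both axes use the same control eyes, and differences of genes at the lowest value depend on the 1 added to every value. The 30 red genes lie in the upper right and the 49 blue genes in the lower left, where many blue genes lie farther from 0 in Shh-MBs than in *RBS* lesions.

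Hedgehog genes were read first. The receptor and target gene *Ptch1* rose in every lesion. Its signal was 219.9, 194, 189 and 165 in the control eyes, 821, 883, 773, 1043 and 943 in the *RBS* lesions and 959, 984 and 1139.8 in the Shh-MBs. The lowest lesion was 1.81 log2 units above the highest control eye, and 1.67 with median centring. The difference of 8 lesions from control eyes was 2.29 (SE 0.13, limma adjusted *p* = 6.52e-07), and it was called in each of the 28 alternative settings. *RBS* lesions and Shh-MBs did not differ past the threshold on the deposited scale, with a difference of -0.21 (SE 0.13, limma adjusted *p* = 0.195). With median centring *Ptch1* was lower in *RBS* lesions by a log2 difference of -1.05 (adjusted *p* = 0.000619), so the order of both lesion types in this gene depends on the scale.

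*Gli1*, the transcription factor most often used as a readout of the pathway, did not share this pattern. Signals were 118, 118, 99.1 and 106 in control eyes, 76, 47.9, 72.7, 79.6 and 72.7 in *RBS* lesions and 217, 212 and 241 in Shh-MBs. All *RBS* lesions lay below and all Shh-MBs above the control eyes, so the mean over the 8 lesions was close to that of the eyes (-0.04 (SE 0.44, limma adjusted *p* = 0.974)). Against Shh-MBs, *RBS* lesions were lower by -1.68 (SE 0.17, limma adjusted *p* = 7.61e-05).

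*Gli3*, the main repressor of the pathway, fell in all lesions. It measured 294 to 390.1 in control eyes, 102 to 151 in *RBS* lesions, against 24.9 to 63 in Shh-MBs, a difference of -2.01 (SE 0.49, limma adjusted *p* = 0.0210). *Gas1*, a co-receptor that binds the ligand at the cell surface, fell from 2048 ± 254 (SD, n = 4) to 1061 ± 168 (SD, n = 5) in the *RBS* group and to 783 ± 149 (SD, n = 3) in the tumors (-1.12 (SE 0.19, limma adjusted *p* = 0.00252)). Whether the probe of *Smo* also reads the *SmoM2* transcript is not given in the sources used here. The *Smo* signal was 154, 147, 148 and 178 in control eyes, 178, 193, 182, 156 and 179 in *RBS* lesions and 146, 142 and 186 in Shh-MBs, and the groups overlapped (0.11 (SE 0.13, limma adjusted *p* = 0.631)). *Hhip*, a target that binds and buffers Hedgehog ligands, measured 104 to 154 in control eyes and 128 to 184 and 150.4 to 241 in the lesions, also with overlap (0.35 (SE 0.18, limma adjusted *p* = 0.252)). Of the 8 Hedgehog genes on the panel, 1 lay above and 2 lay below the control eyes on both scales, against 3.90% and 6.36% of all genes.

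*Ctnnb1*, the gene of beta-catenin, carries the second engineered allele of the *RBS* mice. It measured 5869, 5655, 5467 and 5761 in control eyes, 8226, 7713, 7400.2, 8364 and 8080.3 in *RBS* lesions and 5191, 4737 and 4661 in Shh-MBs. Every *RBS* lesion was above and every Shh-MB below the eyes on the deposited scale. The difference between lesion types was 0.71 (SE 0.09, limma adjusted *p* = 0.000257) and turned to -0.14 with median centring (adjusted *p* = 0.319). Its feedback target *Axin2*, which helps to degrade beta-catenin, rose from 90.6 to 108 in control eyes to 151 to 228 in *RBS* lesions and measured 114 to 131 in Shh-MBs, with 0.69 (SE 0.20, limma adjusted *p* = 0.0410) over the 8 lesions. The Shh-MBs alone gave 0.31 (SE 0.11, limma adjusted *p* = 0.0638). It was the sole member on both scales that lay higher among 19 genes of the beta-catenin pathway and its feedback. *Dkk2*, a secreted Wnt antagonist, lay lower. It had 419.9 to 611 in control eyes, 153 to 226 in *RBS* lesions, against 1.00 to 3.35 in Shh-MBs, and missed the call over the 8 lesions (-3.63 (SE 1.48, limma adjusted *p* = 0.145)). None of 15 Wnt ligands and none of 6 Frizzled receptors and co-receptors was separated.

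Among the 30 genes that lay higher on both scales, the log2 difference of the 8 lesions from control eyes was 0.35 to 3.79 with a median of 1.19. The members were chosen by these same values, so the differences and calls of single members against control eyes describe them and are no separate test. *RBS* lesions alone and Shh-MBs alone were compared with the same control eyes, which called 51.2% and 41.0% of all genes in either direction. Of the 30 members, 30 were called in *RBS* lesions alone and 20 in Shh-MBs alone. These counts follow from the choice of members and are given only because not every member passed in Shh-MBs. The panel holds 37 genes of the list of neuronal receptors, neurotrophin signaling and neuronal cytoskeleton. Of these, 10 lay above and 2 below the control eyes on both scales, against 3.90% and 6.36% of all genes. Its median log2 difference over the 8 lesions was 0.68, with 1.08 in *RBS* lesions and 0.05 in Shh-MBs, against 0.02, 0.17 and -0.22 over all genes. The neuron markers on the panel, 3 of 8 looked for (*Mapt*, *Grin1* and *Grin2b*), summed to 545 to 709 in control eyes, 2093 to 2815 in *RBS* lesions, against 315 to 491 in Shh-MBs. *Mapt*, which codes for the microtubule protein tau and is not a member, measured 522 to 653, 1789 to 2431 and 239.8 to 368 in the same order. The marker sum was thus above the control eyes in *RBS* lesions and below them in Shh-MBs, and the part of neuron content in the higher genes was not tested.

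*Cacna1e* had the largest log2 difference of the 30 and was low in control eyes. It codes for the pore of an R-type calcium channel of neurons. Control eyes measured 5.23, 5.43, 3.53 and 7.38, *RBS* lesions 92.4, 119.9, 122, 148 and 143 and Shh-MBs 51.8, 53.9 and 34.6. No lesion came near the eyes, and on the deposited scale *RBS* lesions were higher than Shh-MBs. The difference from control eyes was 3.79 (SE 0.40, limma adjusted *p* = 7.80e-05), and the difference between lesion types was 1.41 (SE 0.21, limma adjusted *p* = 0.000476). The difference between lesion types was 0.56 (adjusted *p* = 0.0471) with median centring. With values under 20 set to 20 the difference from control eyes was 2.04, below that of *Ppp2r2c* (2.70), *Grin2b* (2.33), *Ptch1* (2.29) and *Plcb1* (2.25). *Cacna1e* was the single member among 15 voltage-gated calcium channel subunits.

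Subunits of glutamate receptors formed the next group. *Grin1*, the subunit that every NMDA receptor needs, measured 13.4, 9.48, 9.90 and 4.25 in control eyes, 28.4, 42.2, 70.01, 55.5 and 47.1 in *RBS* lesions and 66.3, 24.9 and 26.1 in Shh-MBs. The difference was 2.15 (SE 0.35, limma adjusted *p* = 0.00220), and 1.03 (adjusted *p* = 0.0400) with values under 20 set to 20. *Grin2b*, the NMDA receptor subunit of the embryonic brain, measured 42.8, 34.8, 29 and 18.8 in control eyes, 311, 262, 243, 328 and 294 in *RBS* lesions and 57.4, 69.9 and 49 in Shh-MBs. Its rise was far larger in *RBS* lesions (3.21 (SE 0.22, limma adjusted *p* = 6.82e-06)) than in Shh-MBs (0.93 (SE 0.28, limma adjusted *p* = 0.0388)), and *RBS* lesions exceeded Shh-MBs by 2.28 (SE 0.15, limma adjusted *p* = 9.39e-06). *Gria3*, a subunit of AMPA receptors, had the opposite order, with 103, 105, 77.9 and 124 in control eyes, 163, 204, 249.8, 222 and 239 in *RBS* lesions and 421, 305 and 343 in Shh-MBs. Here Shh-MBs were the higher lesion (-0.73 (SE 0.17, limma adjusted *p* = 0.00632) for *RBS* minus Shh-MB). Leaving out any 1 control eye ended the call of *Grin2b* over the 8 lesions (adjusted *p* of 0.0531 to 0.0807, log2 difference of 2.13 to 2.52).

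Of the neurotrophin genes, *Ntrk2*, the receptor of BDNF, rose from 207 to 287 in control eyes to 407 to 591 in *RBS* lesions, against 382 to 635 in Shh-MBs (1.06 (SE 0.17, limma adjusted *p* = 0.00191)). Its ligand gene *Bdnf* lay lower in all lesions, with 46 to 55.1, 27.8 to 38.9 and 11.7 to 26 in the same order, and was not called over the 8 (-0.92 (SE 0.31, limma adjusted *p* = 0.0787)). *Tnr*, tenascin-R of the matrix around neurons, was near the low end of the scale with 6.40, 4.42, 6.72 and 6.34 in control eyes, 12, 13.1, 10.1, 12.1 and 15.1 in *RBS* lesions and 27.1, 10.8 and 9.12 in Shh-MBs. Its difference of 1.02 (SE 0.25, limma adjusted *p* = 0.0210) was lost when any 1 control eye was left out (adjusted *p* of 0.0515 to 0.0907, differences of 0.90 to 1.07), and fell to 0.05 with values under 20 set to 20.

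Enzymes and scaffolds of intracellular signaling were also among the higher genes, a set named after the values were seen. Of these, *Plcb1*, *Ppp2r2c*, *Mapk10*, *Mapk8ip1* and *Mapk8ip2* are already counted among the 10 higher genes of the neuronal list. *Mapk10* codes for JNK3, the neuronal JNK kinase. It measured 324, 259.8, 285 and 214 in control eyes, 1195, 1212, 1130.4, 1484 and 1293 in *RBS* lesions and 672, 593 and 476 in Shh-MBs. All lesions were higher (1.80 (SE 0.31, limma adjusted *p* = 0.00312)). *RBS* lesions exceeded Shh-MBs by 1.13 on the deposited scale and by 0.28 (adjusted *p* = 0.117) with median centring. *Mapk8ip1* and *Mapk8ip2*, scaffolds that assemble the JNK cascade, rose by log2 differences of 0.75 (SE 0.12, limma adjusted *p* = 0.00209) and 0.92 (SE 0.17, limma adjusted *p* = 0.00417).

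*Ppp2r2c* and *Ppp2r2b* code for regulatory subunits of protein phosphatase 2A that are enriched in the brain. *Ppp2r2c* measured 139, 179.8, 148 and 134 in control eyes, 417, 428, 501, 534 and 556 in *RBS* lesions and 2827, 3510.4 and 3140.0 in Shh-MBs. The Shh-MBs stood far above the *RBS* lesions, which in turn stood above the eyes. The difference between lesion types was -2.70 (SE 0.14, limma adjusted *p* = 2.53e-06). *Ppp2r2b* had the reverse order, with 83.8, 85.5, 75.8 and 70.9 in control eyes, 324, 413, 459, 570.2 and 574 in *RBS* lesions and 181, 194 and 164 in Shh-MBs, and a difference between lesion types of 1.35 (SE 0.20, limma adjusted *p* = 0.000542). With median centring the latter was 0.50 (adjusted *p* = 0.0764). Over the 8 lesions the differences from control eyes were 2.70 (SE 0.67, limma adjusted *p* = 0.0239) for *Ppp2r2c* and 2.02 (SE 0.37, limma adjusted *p* = 0.00417) for *Ppp2r2b*. For *Ppp2r2c*, leaving out any 1 control eye gave an adjusted *p* of 0.0643 to 0.0747 with a log2 difference of 2.65 to 2.79.

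*Plcb1*, a phospholipase C that acts downstream of G protein-coupled receptors, measured 68.6, 42.9, 58.8 and 68.8 in control eyes, 230.2, 269, 341, 353 and 392 in *RBS* lesions and 245, 252 and 231 in Shh-MBs. It rose by 2.25 (SE 0.20, limma adjusted *p* = 1.23e-05) over the 8, and the difference between lesion types was 0.36 (SE 0.18, limma adjusted *p* = 0.122) on the deposited scale and -0.49 (adjusted *p* = 0.0632) with median centring. *Ptprr*, a tyrosine phosphatase that acts on MAP kinases, measured 28.7, 11.5, 16.3 and 28.2 in control eyes, 87.4, 97.3, 89.4, 85.6 and 102 in *RBS* lesions and 335, 46.4 and 35.4 in Shh-MBs. Shh-MB 1 stood apart from the other tumors with the highest signal of all samples. The difference was 2.10 (SE 0.49, limma adjusted *p* = 0.0195), and the adjusted *p* was 0.0825 without control eye 2 (log2 difference of 1.86) and 0.0659 without control eye 3 (2.01). In Shh-MBs alone *Ptprr* was not called (2.00, limma adjusted *p* = 0.0912). *Camk2b*, a subunit of the calcium-dependent kinase CaMKII, had the same tumor highest among the Shh-MBs (374, 180.4 and 139.7), with control eyes at 99 to 137 and *RBS* lesions at 338 to 441 (1.37 (SE 0.30, limma adjusted *p* = 0.0137)).

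Other higher genes had roles outside neurons. *Mad2l2*, a subunit of the DNA polymerase that copies past damage, measured 112, 130.1, 92.8 and 106 in control eyes, 192, 302, 247, 247 and 278 in *RBS* lesions and 234, 309.7 and 402 in Shh-MBs (1.30 (SE 0.19, limma adjusted *p* = 0.000902)). *Bcl2a1a*, a member of the Bcl2 family that restrains apoptosis, measured 12.3, 6.44, 19.5 and 10.5 in control eyes, 33.3, 57.6, 55, 56.7 and 37.1 in *RBS* lesions and 38.3, 56.7 and 41.3 in Shh-MBs (1.93 (SE 0.26, limma adjusted *p* = 0.000499), and 1.16 with values under 20 set to 20). Near-identical copies of *Bcl2a1a* lie in the mouse genome, so its signal could hold that of its copies. *Cd14*, a receptor for bacterial lipopolysaccharide on myeloid cells, was at the low end of the scale with 4.05, 1.01, 3.53 and 3.21 in control eyes, 21.8, 5.78, 5.66, 21.7 and 7.80 in *RBS* lesions and 9.22, 11.8 and 7.42 in Shh-MBs. Its difference of 1.57 (SE 0.39, limma adjusted *p* = 0.0246) fell to 0.03 with values under 20 set to 20. The call also ended without control eye 2, 3 or 4 (adjusted *p* = 0.0996, 0.0595 and 0.0560, log2 differences of 1.27, 1.66 and 1.63). The summed signal of 4 of 6 myeloid and immune markers, *Cd14* included, was 92.7 to 134 in control eyes, 182 to 245 in *RBS* lesions, against 117 to 232 in Shh-MBs, and their part in this result was not tested. *Cd14* was the single member of 25 myeloid and immune genes.

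*Pdgfa*, a growth factor for mesenchymal and glial precursors, was higher in Shh-MBs (640.3 to 815) than in *RBS* lesions (331 to 444) and control eyes (202 to 275), and rose by 1.07 (SE 0.26, limma adjusted *p* = 0.0210) over the 8. This call ended with median centring (adjusted *p* = 0.0828, log2 difference of 1.21) and without control eye 1, 2 or 3 (adjusted *p* = 0.0710, 0.0779 and 0.0699, log2 differences of 1.02, 1.06 and 1.06). *Prmt8*, an arginine methyltransferase of neurons, had the largest excess in Shh-MBs after *Ppp2r2c* among the 30. It measured 68.8 to 104 in control eyes, 142 to 182 in *RBS* lesions, against 944 to 1071 in Shh-MBs, and missed the call over the 8 (1.81 (SE 0.66, limma adjusted *p* = 0.101)). Further members on both scales were the chromatin-associated genes *Setbp1*, *Phf6* and *Mllt3* with *Gna11*, *Rbx1*, *Tbl1xr1*, *Aph1b* and *Ptpn11*. Their log2 differences ran from 0.35 for *Ptpn11* to 1.02 for *Mllt3*, and *Aph1b* and *Ptpn11* were not called (adjusted *p* = 0.0700 and 0.0778).

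**Figure D2:**
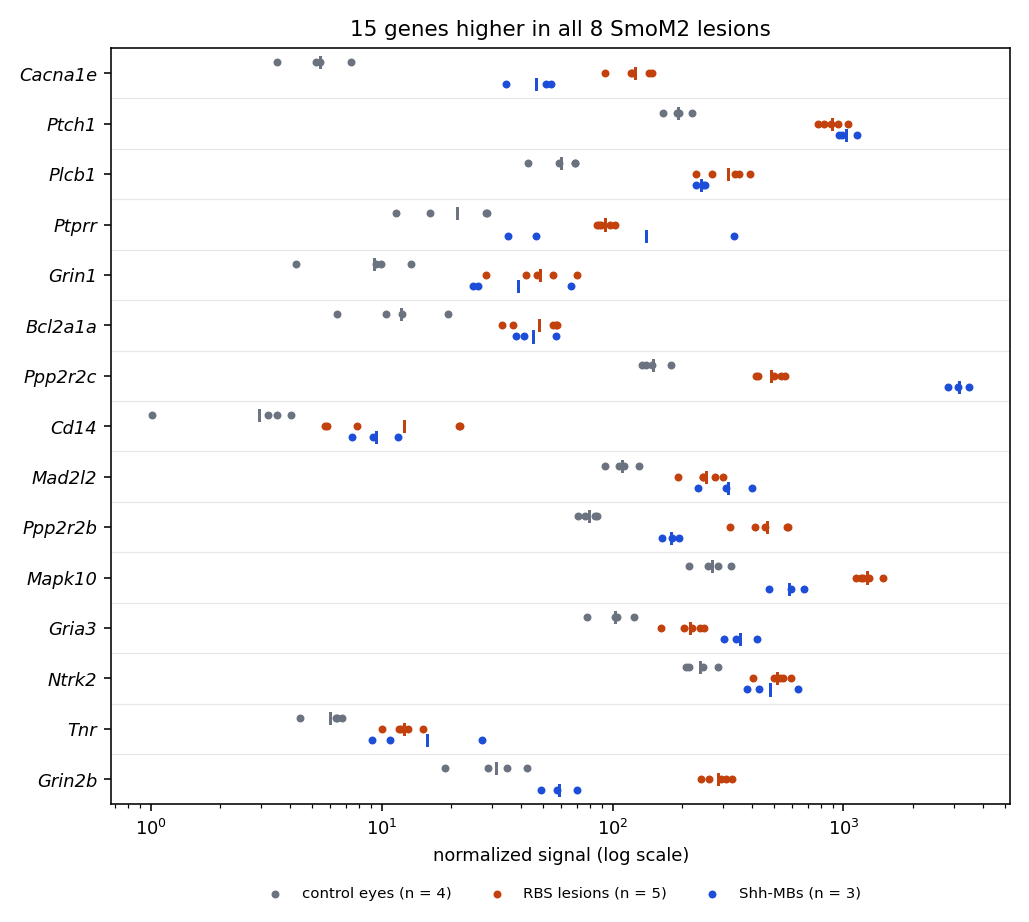
Normalized signal (log axis) of the 15 genes chosen by the naming rule that rose in the lesions, with one point per sample and a short line at each group mean, for 4 control eyes (grey), 5 *RBS* lesions (orange) and 3 Shh-MBs (blue). Every lesion lies to the right of all control eyes in each gene, and the order of both lesion types differs between genes such as *Ppp2r2c* and *Grin2b*.

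The 49 genes that lay lower on both scales had log2 differences of -5.29 to -0.57 over the 8 lesions, with a median of -2.01. *RBS* lesions alone gave a median of -1.22 and Shh-MBs alone -3.15. *Col2a1* had the smallest of these differences in *RBS* lesions, with 681 to 869 in control eyes and 563 to 665 in *RBS* lesions (-0.27 (SE 0.10, limma adjusted *p* = 0.0528)). On the deposited scale, where Shh-MBs have the lowest sample medians, the fall was larger in Shh-MBs for 45 of the 49. In 11 genes at least 1 Shh-MB sat at the lowest value of its sample. In *Fgf3*, *Col4a4*, *Gngt1*, *Epha2* and *Tshr* all 3 Shh-MBs did, and no difference from control eyes is given for Shh-MBs in these 5 genes. Differences of these genes over the 8 lesions depend on the 1 that was added to every value. With values under 20 set to 20, the differences of *Fgf3*, *Col4a3*, *Gngt1*, *Birc7*, *Tnn*, *Gdf6* and *Epha2* shrank to -2.44, -2.52, -1.11, -1.11, -0.76, -1.11 and -0.10 and were still called. In *Fgf3*, *Gngt1*, *Tnn*, *Gdf6* and *Epha2* every lesion value was under 20 and so became 20. The lesions then have no spread by construction, and the calls that remained are no support for these genes.

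*Ccnd1*, the cyclin D1 that retinal progenitors use to enter the cell cycle, fell in all lesions. Control eyes measured 14029.8, 15077, 15146 and 11228, *RBS* lesions 2206, 1877, 2236, 1555 and 1406 and Shh-MBs 2419, 2162 and 2018. On the deposited scale both lesion types fell to a like level, by -2.82 (SE 0.17, limma adjusted *p* = 6.52e-07) over the 8, and their difference from each other was -0.27 (SE 0.18, limma adjusted *p* = 0.236). With median centring *RBS* lesions were lower than Shh-MBs by a log2 difference of -1.11 (adjusted *p* = 0.000730). *Ccnd1* was the single member among 13 genes of D and E cyclins, their kinases and E2F factors. *Myb*, a transcription factor of dividing precursors, fell from 943, 1002, 931 and 719 in control eyes to 148, 131, 199.6, 89.2 and 92.9 in *RBS* lesions and 77.5, 74.5 and 86.3 in Shh-MBs (-3.06 (SE 0.26, limma adjusted *p* = 1.23e-05)). *Gadd45a*, a growth arrest gene induced by DNA damage, fell to like levels in both lesion types on the deposited scale. It measured 817, 1018, 845 and 803 in control eyes, 238, 234, 302, 230.3 and 235 in *RBS* lesions and 212, 287 and 252 in Shh-MBs, with -1.81 (SE 0.13, limma adjusted *p* = 2.38e-06) against control eyes and -0.01 (SE 0.14, limma adjusted *p* = 0.950) between lesion types. With median centring the latter was -0.86 (adjusted *p* = 0.00443).

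Among 22 genes of secreted FGFs and FGF receptors, *Fgf3* and *Fgf15* lay lower on both scales, against 6.36% of all genes. Both ligands are expressed in the embryonic retina. *Fgf3* measured 125, 114, 119 and 94.9 in control eyes, 1.64, 3.35, 6.54, 2.46 and 1.00 in *RBS* lesions and 1.12, 1.00 and 1.00 in Shh-MBs, so that it was nearly lost from both lesion types (-5.29 (SE 0.35, limma adjusted *p* = 1.11e-06)). The gap between lesions and control eyes was the widest of all 108 members, 3.67 on the deposited scale and 3.79 with median centring. *Fgf15*, which marks retinal progenitors, measured 1061, 1094, 879.8 and 835 in control eyes, 145, 152, 146, 149.5 and 74.6 in *RBS* lesions and 1.12, 1.00 and 4.87 in Shh-MBs. It was partly kept in *RBS* lesions and at or near the lowest value in Shh-MBs, with 5.48 (SE 0.40, limma adjusted *p* = 1.40e-05) between lesion types and -4.94 (SE 1.37, limma adjusted *p* = 0.0383) over the 8. Leaving out any 1 control eye ended the latter call (adjusted *p* of 0.0847 to 0.102, differences of -5.01 to -4.88), as did leaving out *RBS* lesion 5 or Shh-MB 3 (adjusted *p* = 0.0507 and 0.0519). The ERK feedback genes *Spry2* and *Dusp6*, which FGF signaling commonly induces, fell by -0.86 (SE 0.13, limma adjusted *p* = 0.00119) and -0.75 (SE 0.14, limma adjusted *p* = 0.00473). They were the members among 15 ERK feedback and ETS genes, whose median log2 difference was 0.09.

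Genes of the differentiating retina and of eye development followed. *Gngt1*, the gamma subunit of rod transducin, measured 40.4, 55.1, 55.6 and 31.3 in control eyes, 10.3, 10.6, 17.1, 1.21 and 2.31 in *RBS* lesions and 1.12, 1.00 and 1.00 in Shh-MBs (-3.36 (SE 0.66, limma adjusted *p* = 0.00596)). *Prdm1*, a transcription factor of photoreceptor precursors, measured 342, 393, 309 and 305 in control eyes, 95.7, 109, 141, 103 and 85.5 in *RBS* lesions and 5.87, 8.97 and 12.5 in Shh-MBs. It was lower in each lesion type alone (-1.66 (SE 0.15, limma adjusted *p* = 3.31e-05) and -5.11 (SE 0.24, limma adjusted *p* = 1.18e-05)), while the unequal sizes left -2.96 (SE 0.87, limma adjusted *p* = 0.0454) over the 8. Without any 1 control eye the adjusted *p* was 0.103 to 0.122 (differences of -3.0 to -2.88). The call also ended without *RBS* lesion 1 or 5 (adjusted *p* = 0.0528 and 0.0572) and without Shh-MB 2 or 3 (0.0543 and 0.0620).

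*Gdf6*, a BMP family ligand needed for eye formation, fell from 49.8, 55.1, 35.4 and 39.7 in control eyes to 13.6, 13.9, 14.5, 4.87 and 4.14 in *RBS* lesions and 3.62, 2.41 and 7.42 in Shh-MBs (-2.54 (SE 0.43, limma adjusted *p* = 0.00261)). *Bambi*, a decoy receptor for BMPs, fell as well (-1.17 (SE 0.23, limma adjusted *p* = 0.00571)), and *Bmp6* lay lower without a call (-1.14 (SE 0.40, limma adjusted *p* = 0.0913)). These were 3 of 15 Id, BMP and BMP antagonist genes, with a list median of -0.56. *Epha2*, an ephrin receptor of the lens and other epithelia, measured 22.8, 19.6, 21.6 and 22 in control eyes, 3.75, 4.97, 3.02, 4.87 and 9.63 in *RBS* lesions and 1.12, 1.00 and 1.00 in Shh-MBs (-2.51 (SE 0.43, limma adjusted *p* = 0.00309)). The summed signal of 5 surface epithelium markers, *Epha2* not included, was 193 to 379 in control eyes, 324 to 647 in *RBS* lesions, against 7.82 to 18.7 in Shh-MBs. It thus moved with *Epha2* in Shh-MBs and not in *RBS* lesions, and *Calml3* of these markers sat at the lowest value in all 3 tumors. *Rxrg*, a nuclear receptor of cones, lay lower without a call (-1.97 (SE 0.61, limma adjusted *p* = 0.0587)).

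The Notch pathway keeps retinal and neural progenitors undifferentiated through the repressors Hes1 and Hes5. Of its 17 genes on the panel, 3 lay lower and none higher on both scales, against 6.36% and 3.90% of all genes. The list median was -0.46. *Hes5* measured 4324, 4416, 3915 and 2903 in control eyes, 1853, 2281, 2259.6, 2353 and 1697 in *RBS* lesions and 558, 475 and 601 in Shh-MBs. All lesions were below all control eyes, the tumors the most, and the call over the 8 was missed (-1.61 (SE 0.50, limma adjusted *p* = 0.0587)) although each lesion type alone was called (-0.89 (SE 0.16, limma adjusted *p* = 0.00138) and -2.82 (SE 0.18, limma adjusted *p* = 3.99e-05)). *Hes1* had the same order at a lower signal, with 72 to 82.7, 36.6 to 62.7 and 9.22 to 28.6 (-1.24 (SE 0.41, limma adjusted *p* = 0.0778)). The ligand gene *Dll4*, which sprouting vessels express, fell from 135 to 267 to 69.7 to 107 and 19.3 to 27.1 (-1.92 (SE 0.46, limma adjusted *p* = 0.0202)).

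*Kdr*, the VEGF receptor of endothelial cells, fell together with *Dll4*. It measured 2012, 2115, 1641 and 1686 in control eyes, 573, 727, 820.1, 639 and 562 in *RBS* lesions and 156, 77.3 and 98.2 in Shh-MBs. Shh-MBs were lower than *RBS* lesions (2.62 (SE 0.24, limma adjusted *p* = 3.80e-05)), and the difference over the 8 was -2.48 (SE 0.67, limma adjusted *p* = 0.0331). This call was lost when any 1 control eye was left out (adjusted *p* of 0.0745 to 0.0996, differences of -2.54 to -2.41). The endothelial markers *Kdr* and *Flt1* summed to 1683 to 2163 in control eyes, 622 to 858 in *RBS* lesions, against 93.8 to 196 in Shh-MBs. *Kdr* made up most of this sum in control eyes and *RBS* lesions, so the sum says little about *Flt1*. Of 5 endothelium genes, *Kdr* and *Dll4* lay lower on both scales. The median log2 difference of the list was 0.12 in *RBS* lesions and -1.59 in Shh-MBs. The part of vessel content in the falls of *Kdr* and *Dll4* was not tested.

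Matrix genes followed in 3 lists, which together held 10 of the 49 lower members. Of 11 basement membrane collagens and laminins, 3 lay lower on both scales and none higher. *Col4a3*, one of the type IV collagen chains of mature basement membranes, measured 171, 116, 118 and 93.8 in control eyes, 2.10, 4.97, 2.14, 23 and 4.14 in *RBS* lesions and 8.10, 6.16 and 18.4 in Shh-MBs (-4.05 (SE 0.54, limma adjusted *p* = 0.000499)). Its partner chain *Col4a4* measured 39.3, 19.6, 18.4 and 18.8 in control eyes, 1.64, 1.00, 2.14, 1.26 and 6.89 in *RBS* lesions and 1.12, 1.00 and 1.00 in Shh-MBs. Control eye 1 held the highest signal of both chains. For *Col4a4* the difference of -3.16 (SE 0.37, limma adjusted *p* = 0.000204) fell to -0.23 with values under 20 set to 20, since 3 control eyes were themselves under 20. *Lama1*, a laminin chain of early basement membranes, fell by -1.59 (SE 0.41, limma adjusted *p* = 0.0273).

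Of 10 fibrillar collagens, 4 lay lower on both scales, with a list median of -1.91 over the 8 lesions, -0.60 in *RBS* lesions and -4.79 in Shh-MBs. *Col24a1* measured 145, 81.5, 99.1 and 142 in control eyes, 33.3, 42.2, 27.7, 19.3 and 51.7 in *RBS* lesions and 1.12, 2.41 and 6.57 in Shh-MBs. Both lesion types were lower, the tumors by more (3.16 (SE 0.45, limma adjusted *p* = 0.000401) for *RBS* minus Shh-MB), and the difference over the 8 was -2.94 (SE 0.85, limma adjusted *p* = 0.0425). Its call ended without any 1 control eye (adjusted *p* of 0.0981 to 0.124, differences of -3.10 to -2.82), without *RBS* lesion 3 or 4 (adjusted *p* = 0.0538 and 0.0586) and without Shh-MB 2 or 3 (0.0504 and 0.0620). *Col11a1* fell by -1.52 (SE 0.24, limma adjusted *p* = 0.00209). *Col1a2*, a chain of the main collagen of connective tissue, measured 3350.3 to 7287 in control eyes, 1553 to 3147 in *RBS* lesions, against 30.5 to 65.9 in Shh-MBs and was not called over the 8 (-3.04 (SE 1.42, limma adjusted *p* = 0.205)). The 5 mesenchyme markers, *Col1a2* among them, summed to 23660 to 53849 in control eyes, 18394 to 34222 in *RBS* lesions, against 1243 to 1916 in Shh-MBs. The first 2 ranges overlap, the Shh-MBs lie far below both, and the part of mesenchyme content in the collagens was not tested.

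Matricellular proteins, which modulate contact between cells and matrix, gave 3 lower members and 1 higher member, *Tnr*, among 10 genes. *Thbs4*, thrombospondin 4, measured 435, 178, 313 and 351 in control eyes, 80.9, 44.6, 53.3, 49.5 and 28.8 in *RBS* lesions and 9.22, 14.6 and 6.57 in Shh-MBs (-3.45 (SE 0.62, limma adjusted *p* = 0.00400)). *Tnn*, a tenascin of connective tissue, measured 36.9, 29.8, 18.4 and 64.7 in control eyes, 12, 4.97, 15.4, 2.46 and 3.23 in *RBS* lesions and 1.39, 2.41 and 1.00 in Shh-MBs (-2.85 (SE 0.57, limma adjusted *p* = 0.00694)). *Thbs1* lay lower without a call (-2.42 (SE 0.98, limma adjusted *p* = 0.142)).

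Some lower genes belonged to other groups. *Nupr1*, a small nuclear protein of the stress response, measured 771, 275, 1053 and 521 in control eyes, 101, 89.2, 76.2, 73.6 and 70.9 in *RBS* lesions and 38.3, 27.7 and 39.7 in Shh-MBs. The control eyes spread widely, and still every lesion was below the lowest of them (-3.28 (SE 0.41, limma adjusted *p* = 0.000385)). *Birc7*, an inhibitor of apoptosis, fell from 54.5, 28.7, 66.2 and 41.7 to 1.64, 4.16, 15.4, 25.4 and 5.97 in *RBS* lesions and 8.10, 7.10 and 7.42 in Shh-MBs (-2.47 (SE 0.51, limma adjusted *p* = 0.00808)). The architectural chromatin gene *Hmga1* fell by -1.39 (SE 0.18, limma adjusted *p* = 0.000499), and *Hmga2* lay lower without a call (-2.74 (SE 1.13, limma adjusted *p* = 0.149)). *Prom1*, which codes for the membrane protein prominin 1 of progenitors and photoreceptors, measured 395 to 512 in control eyes, 184 to 247 in *RBS* lesions, against 170.1 to 229.8 in Shh-MBs, and fell by -1.12 (SE 0.14, limma adjusted *p* = 0.000347) over the 8. The difference between lesion types was 0.19 (adjusted *p* = 0.264) on the deposited scale and -0.65 (adjusted *p* = 0.00155) with median centring. Of 30 growth factor receptors and angiogenic factors, *Epha2*, *Kdr*, *Ret* and *Met* lay lower and *Pdgfa* higher, and *Met* was not called (0.133, adjusted *p*). *Fbxw7*, which marks cyclin E and other proteins for degradation, fell by -1.14 (SE 0.22, limma adjusted *p* = 0.00588). Further lower members on both scales were *Tshr*, *Pla2g5*, *Rasa4*, *Tiam1*, *Tnfrsf10b*, *Cdc14a*, *Zbtb16* and *Mnat1*, with log2 differences from -3.01 for *Tshr* to -0.57 for *Mnat1*. Of these, *Rasa4*, an inhibitor of Ras, *Tiam1*, an activator of Rac, and *Mnat1*, a subunit of the kinase that activates cyclin-dependent kinases, were called (adjusted *p* = 0.0375, 0.0315 and 0.0410).

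**Figure D3:**
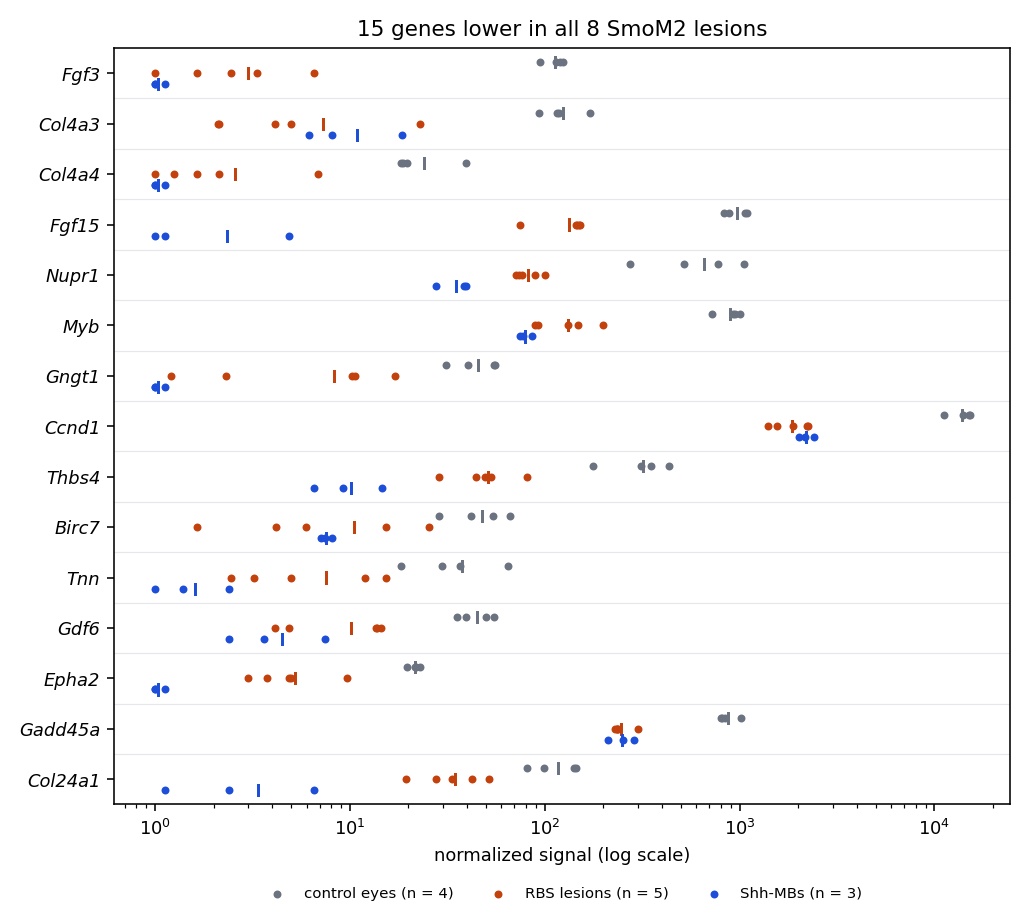
Normalized signal (log axis) of the 15 genes chosen by the naming rule that fell in the lesions, drawn as one point per sample with a line at each group mean for 4 control eyes (grey), 5 *RBS* lesions (orange) and 3 Shh-MBs (blue). Every lesion lies to the left of all control eyes, on this deposited scale *Ccnd1*, *Gadd45a* and *Birc7* have like levels in both lesion types, and *Fgf15* and *Thbs4* are lowest in Shh-MBs.

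Several lists held no member on both scales. These were DNA replication (14 genes), DNA repair (36), G2 and mitosis (17), cyclin-dependent kinase inhibitors (7), integrin subunits (11), PI3K, Akt and mTOR (20), TGF-beta and activin signaling (15) and housekeeping genes (20). DNA replication genes had a median log2 difference of -1.08 in *RBS* lesions and of 0.19 in the tumors, so the medians had opposite signs, and the difference of the list between the lesion types was not tested. Apoptosis genes gave 1 higher and 3 lower members of 22, MAP kinase cascade and Ras genes 2 of each among 38, developmental transcription factors 3 lower of 28 and chromatin modifiers 1 higher of 34. All these shares stand beside 3.90% and 6.36% of all panel genes, and no test of a list was made. The list of developmental transcription factors counts *Prom1*, which codes for a membrane protein, beside *Rxrg* and *Zbtb16*, and leaves out *Prdm1* and *Myb*.

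The comparison between the lesion types was not used to choose the members. *RBS* lesions and Shh-MBs differed in 468 of 770 genes (60.8%), with 370 higher and 98 lower in *RBS* lesions. Of the 30 genes higher in both, 10 were higher in *RBS* lesions and 4 in Shh-MBs, and 16 were not called. With median centring these counts were 2 and 17. Of the 49 genes lower in both, 35 were higher in *RBS* lesions, none was higher in Shh-MBs, and 14 were not called. With median centring, 21 were higher in *RBS* lesions and 7 in Shh-MBs. The ordering of the lesion types within the shared genes thus depends on the scale for many genes and did not for *Fgf15* (5.48 on the deposited scale and 4.63 with median centring), *Kdr* (2.62 and 1.78), *Prdm1* (3.45 and 2.60), *Ppp2r2c* (-2.70 and -3.54) and *Gria3* (-0.73 and -1.57).

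Median centring removed 29 of the 108 members, 11 higher and 18 lower, and turned none to the opposite side. Shh-MBs have the lowest sample medians, so centring raises them against the eyes. After centring alone, 78 genes lay higher and 58 lower, and the share of limma calls that were higher moved from 48.9% to 63.2%. The members nearest the border were *Mcm4*, a helicase subunit of the replication fork, with a gap of 0.0046 between the nearest lesion and control eye, and *Gng12*, a G protein subunit, with 0.011. Just outside were *Pak7* with a gap of -0.0034 and *Alas1* with -0.0079, where the groups overlapped.

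The higher genes that were lost under centring included *Bmp5*, a BMP ligand, with 1.71, 1.38, 5.66 and 5.30 in control eyes, 21.8, 9.01, 13.6, 6.08 and 19.7 in *RBS* lesions and 27.1, 36.1 and 17.6 in Shh-MBs (2.12 (SE 0.45, limma adjusted *p* = 0.0104)). With values under 20 set to 20 its difference was 0.17, and without control eye 2 the adjusted *p* was 0.0545 (1.87). *Egfr*, the receptor of epidermal growth factor, measured 85, 56.1, 53.5 and 90.7 in control eyes, 168, 99.7, 119, 158 and 91.9 in *RBS* lesions and 151, 194 and 144 in Shh-MBs (0.97 (SE 0.23, limma adjusted *p* = 0.0202)). Its call ended without control eye 2 or 3 (adjusted *p* = 0.0838 and 0.0829, log2 differences of 0.87 and 0.85). *Prkcb*, a protein kinase C, measured 209.6 to 245 in control eyes, 255 to 435 in *RBS* lesions, against 1160.3 to 1229.5 in Shh-MBs, and was not called over the 8 (1.25 (SE 0.46, limma adjusted *p* = 0.108)). *Rps6ka5*, *Prkx*, *G6pdx*, *Pik3r2*, *Whsc1* and *H3f3a* were lost as well. *Fut8*, which adds core fucose to glycoproteins, rose by 0.78 (SE 0.21, limma adjusted *p* = 0.0315) and *Gng12* by 0.73 (SE 0.17, limma adjusted *p* = 0.0202). For *Fut8* the adjusted *p* was 0.0609 to 0.108 when 1 control eye was left out (differences of 0.71 to 0.83), and for *Gng12* it was 0.0144 without control eye 4 (difference of 0.86) and 0.0569, 0.0804 and 0.0829 without control eye 1, 2 and 3 (differences of 0.74, 0.70 and 0.61).

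Among the lower genes that were lost, some act in the cell cycle. On the deposited scale, 2 of 14 DNA replication genes, 1 of 17 G2 and mitosis genes and 3 of 36 DNA repair genes lay lower, against 8.70% of all genes. *Top2a*, the topoisomerase of dividing cells, measured 2760.2, 3266, 2884 and 2563 in control eyes, 1005, 1089, 1236, 980.03 and 911 in *RBS* lesions and 1958, 2148 and 2217 in Shh-MBs. *RBS* lesions were lower than Shh-MBs (-1.02 (SE 0.12, limma adjusted *p* = 0.000168)), which lay a little below the eyes (-0.44 (SE 0.12, limma adjusted *p* = 0.0223)). The difference over the 8 was -1.08 (SE 0.28, limma adjusted *p* = 0.0270), and no call remained without any 1 control eye (adjusted *p* of 0.0576 to 0.0981, differences of -1.13 to -1.01). *Cdc6*, which loads the replicative helicase, measured 51, 42.9, 37.5 and 39.7 in control eyes, 3.75, 14.7, 18.9, 12.1 and 8.72 in *RBS* lesions and 30.5, 25.8 and 29.5 in Shh-MBs, and missed the call over the 8 (-1.42 (SE 0.46, limma adjusted *p* = 0.0675)). Further genes of this kind were *Mcm4*, *Cdc25b* and *Pkmyt1*, and the DNA damage response genes *Atr*, *Rad50*, *H2afx* and *Mdc1*. *Ezh2*, *U2af1*, *Tgfb2*, *Kat2b*, *Dll3* and *Sp1* were lost as well. *Fgf9*, a ligand of the retina and the granule cell layer, measured 247 to 303 in control eyes, 41.6 to 76.2 in *RBS* lesions, against 215 to 234 in Shh-MBs (-1.47 (SE 0.49, limma adjusted *p* = 0.0793)). *Sfrp2*, a secreted Wnt modulator of the retina, fell by -0.88 (SE 0.25, limma adjusted *p* = 0.0390), a call lost without *RBS* lesion 2, 3 or 5 (adjusted *p* = 0.0643, 0.0617 and 0.0655) or without any 1 control eye (0.0853 to 0.122, differences of -0.93 to -0.79). *Eif4ebp1*, a brake on translation under mTOR, fell by -0.83 (SE 0.15, limma adjusted *p* = 0.00467).

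**Figure D4:**
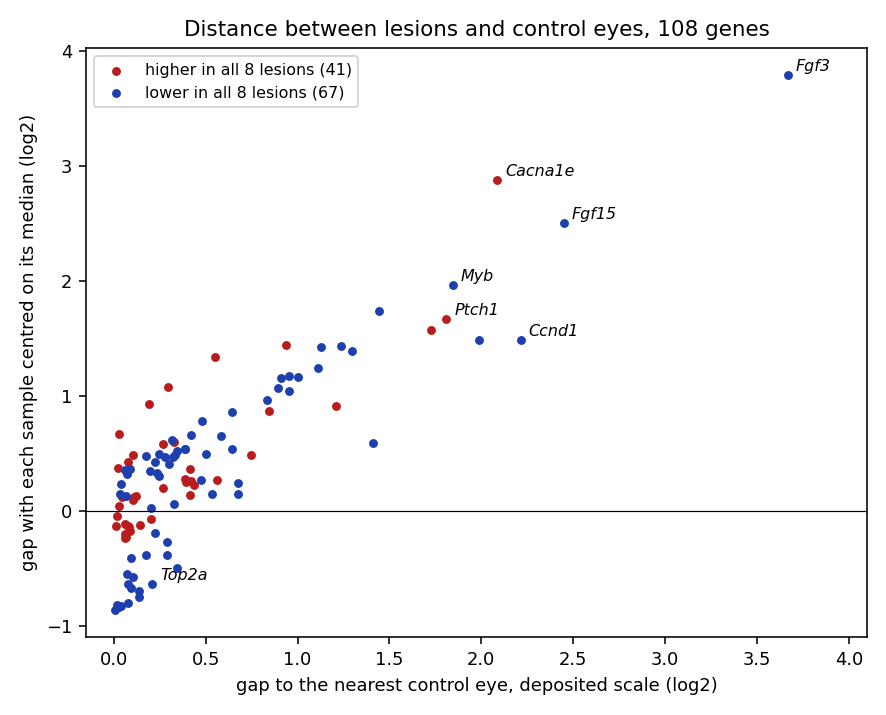
Gap in log2 units between the lesion and the control eye that lie nearest to each other, on the deposited scale (x axis) and with median centring (y axis), for 41 higher (red) and 67 lower (blue) genes. Points below the horizontal line at 0 are the 29 genes whose groups overlap after centring, and *Fgf3* has the widest gap on both axes.

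Promoters of 3 of the genes that were lost under centring are shown because each holds a string bound by E2F factors, which the choice of members did not use. E2F factors, which turn on replication genes, bind strings that include TTTCCCGC, TTTGGCGC, TTTCGCGC and TTTGCCGC. Promoters were taken from RefSeq on GRCm38.p6 as 250 bases before to 50 bases after the start, searched on both strands, and 79 of the 108 members had one. At least 1 of these strings was found for 4 of 13 lower genes that were lost under centring and have a promoter (*Cdc6*, *Ezh2*, *Mdc1* and *U2af1*), for none of 35 lower genes on both scales and for 2 of 22 higher genes on both scales. It was found for 6 of 13 DNA replication genes, for 37 of 568 panel genes (6.51%) and for 704 of 27025 genes in the table (2.61%). The string GACCACCCA of Gli factors was found for 78 of 27025 genes (0.289%) and for none of the 7 Hedgehog genes with a promoter, which says only that these letters are not in this window. The matches are descriptions and not binding sites.

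The promoters of *Cdc6* (chr11:98907901-98908200, plus strand), *Ezh2* (chr6:47594981-47595280, minus strand), a methyltransferase of histone H3, and *Mdc1* (chr17:35841248-35841547, plus strand) read as follows, with the E2F string or its reverse complement in capitals.
Cdc6: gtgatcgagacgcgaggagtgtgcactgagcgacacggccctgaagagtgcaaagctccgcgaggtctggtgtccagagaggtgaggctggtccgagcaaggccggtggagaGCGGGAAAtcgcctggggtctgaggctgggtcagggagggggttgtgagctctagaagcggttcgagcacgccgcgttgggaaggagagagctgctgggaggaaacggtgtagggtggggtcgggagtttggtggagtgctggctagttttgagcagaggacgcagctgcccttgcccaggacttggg
Ezh2: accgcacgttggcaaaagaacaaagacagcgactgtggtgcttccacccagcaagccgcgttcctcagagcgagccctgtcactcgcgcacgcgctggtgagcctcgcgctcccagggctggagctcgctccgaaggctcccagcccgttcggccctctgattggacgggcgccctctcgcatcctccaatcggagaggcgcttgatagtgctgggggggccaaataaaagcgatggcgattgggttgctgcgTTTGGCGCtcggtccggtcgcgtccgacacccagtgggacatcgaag
Mdc1: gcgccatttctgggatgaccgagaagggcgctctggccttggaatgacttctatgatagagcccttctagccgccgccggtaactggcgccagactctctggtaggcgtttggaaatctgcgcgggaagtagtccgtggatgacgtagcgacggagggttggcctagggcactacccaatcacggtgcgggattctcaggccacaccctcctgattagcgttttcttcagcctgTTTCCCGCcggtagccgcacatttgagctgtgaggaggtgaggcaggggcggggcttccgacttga

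In *Cdc6* the string lies on the opposite strand, and in *Mdc1* it lies close before the start. *Ezh2* measured 1218 to 1555 in control eyes, 777 to 955 in *RBS* lesions, against 936 to 1108 in Shh-MBs, and *Mdc1* measured 267 to 307, 158 to 205 and 234 to 253 in the same order. In both genes, as in *Cdc6*, the *RBS* lesions had the lower mean of both lesion types on the deposited scale.

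Genes on opposite sides of the control eyes show what the lesion types do not share. On both scales, 17 genes (2.21%) had all *RBS* lesions above and all Shh-MBs below the control eyes, and 15 (1.95%) the reverse. For the first kind the count on the deposited scale alone was 68. *Lrp2*, the endocytic receptor megalin that also takes up Hedgehog ligand, measured 31, 38.9, 28 and 27.2 in control eyes, 243, 194, 179, 206 and 193 in *RBS* lesions and 4.75, 1.00 and 4.03 in Shh-MBs. *Itga2*, an integrin receptor for collagen, measured 36.9, 19.6, 24.8 and 29.2 in control eyes and 181, 137, 126, 179.7 and 158 in *RBS* lesions, and all 3 Shh-MBs sat at the lowest value. *Ptpn5*, a tyrosine phosphatase of neurons, measured 110.5 to 157 in control eyes, 579.7 to 712 in *RBS* lesions, against 10.8 to 54 in Shh-MBs. The G protein subunit gene *Gng4* (1.98 in *RBS* lesions and -2.45 in Shh-MBs against control eyes) and *Rasgrf2*, an activator of Ras (1.68 and -3.77), had the same pattern. In *Rasgrf2* 2 of the 3 Shh-MBs and in *Lrp2* 1 of them sat at the lowest value, so the size of these differences depends on the 1 added to every value.

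In the reverse sense, *Mycn* stood out among genes that drive division of granule cell precursors under Hedgehog signaling. It measured 1414, 1353, 1300.5 and 1060.3 in control eyes, 632, 702, 713, 804 and 654 in *RBS* lesions and 3087, 3879 and 3885 in Shh-MBs, a log2 difference between lesion types of -2.36. Genes of both senses were chosen for this order of the lesion types, so their differences are descriptions without a test. *Dusp5*, a phosphatase of ERK, measured 43.8 to 69.3 in control eyes, 25.9 to 41.5 in *RBS* lesions, against 155 to 268 in Shh-MBs. *Cdkn2c*, the cell cycle inhibitor p18, and *Rfc4*, a clamp loader of DNA replication, followed with log2 differences against control eyes of -1.11 and -1.11 in *RBS* lesions and of 0.73 and 0.54 in the tumors. *Gli1*, described above, belongs to this group, while *Ptch1* lies on the same side in both lesion types.

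**Figure D5:**
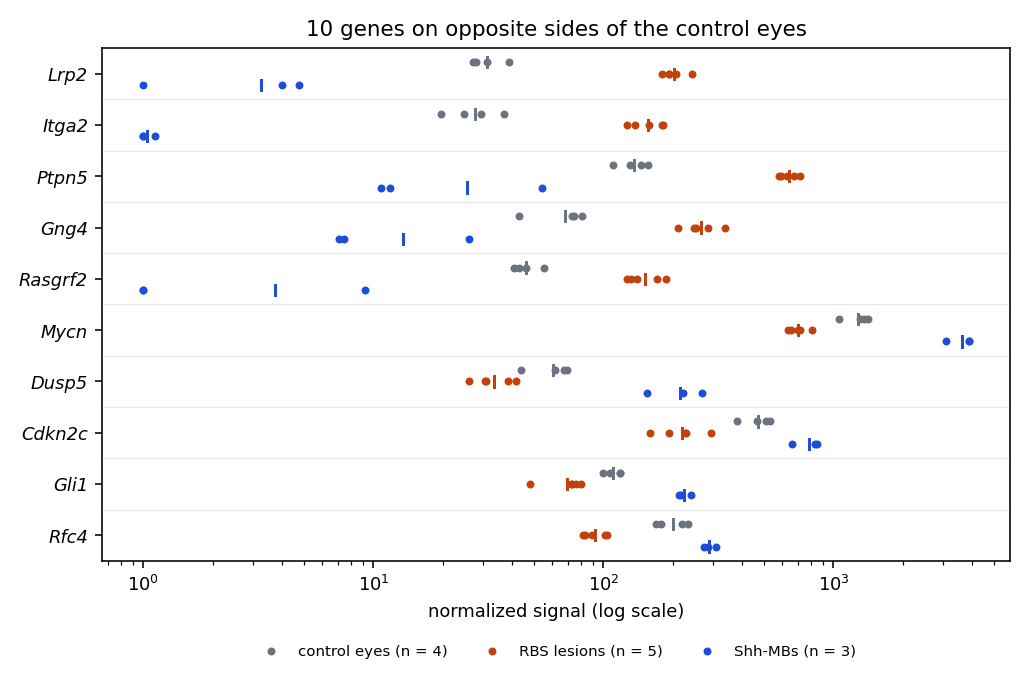
Normalized signal (log axis) of 10 genes whose *RBS* lesions (orange, n = 5) and Shh-MBs (blue, n = 3) lie on opposite sides of all 4 control eyes (grey), one point per sample with a line at each group mean. The upper 5 genes are high in *RBS* lesions and low in Shh-MBs, and the lower 5, *Mycn* and *Gli1* among them, are the reverse.

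The control eyes limit the calls over the 8 lesions. Leaving out control eye 1, 2, 3 or 4 gave 21, 16, 15 and 24 genes called higher and 28, 26, 27 and 29 called lower, against 45 and 47 with all 4. Leaving out a sample cannot end the separation of a gene. The p-values over the 8 lesions rest on a spread that also holds the difference between the lesion types. Those of a single lesion type against control eyes, or of both lesion types against each other, rest on the spread between animals within groups.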

How the data were processed

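RNA of 12 murine samples was counted on the nCounter Mouse PanCancer Pathways panel. The authors normalized the counts with nSolver 4.0.70 and nCounter Advanced Analysis 2.0.115. What was deposited is a normalized signal, linear and not on a log scale. From its low values, a background had been subtracted and every sample multiplied by 1 factor, and genes not above background sit at the lowest value in a sample. Counts before this step were not used here.

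Values were analysed as log2(signal + 1) without a filter. Groups were compared in R 4.3.3 by limma 3.58.1 (eBayes, two-sided, Benjamini-Hochberg over 770 genes, threshold 0.05). The code was tested on simulated data in which the lesion types did not differ, so that test does not cover the spread between them. Genes were separated when all values of one group lay above all of the other, on the deposited scale and after median centring of each sample. Of the gene symbols, 760 matched the reference table directly and 10 as a synonym. The members, the gene lists, written from general knowledge, and the rule for named genes were chosen with earlier results of these data known.

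The rule names *Smo*, *Ctnnb1*, *Gli1*, *Ptch1* and *Hhip*, and the 15 called and separated genes per direction with the largest smaller difference of both lesion types. It adds the 5 largest in each sense on opposite sides and the 5 lost under centring per direction. Up to 4 per sense come from the difference between lesion types. Other members were named after their values were seen. Some members are not reported here by name. Plots used matplotlib 3.10.9 (Python 3.11.15).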

Additional observations from a re-analysis of the deposited data

Results flagged for a closer look

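Of 112 groups of 4 or 5 samples of named genes, 7 held a sample far from the rest of its group, and chance gives about 1 in 20. The gap to the nearest sample as a share of the range of the group was 0.820 for *Gli1* in *RBS* lesion 2 (signal 47.9), 0.857 for *Tnr* in control eye 2, 0.917 for *Col4a4* in control eye 1 (signal 39.3), 0.930 for *Fgf15* in *RBS* lesion 5 (signal 74.6), 0.871 for *Gadd45a* in *RBS* lesion 3, 0.852 for *Gng4* in control eye 4 and 0.786 for *Gng12* in *RBS* lesion 1. In *Gng12* this sample was the *RBS* lesion nearest to the control eyes.

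*RBS* lesions and Shh-MBs differed by the limma test in 31 of 56 named genes, against 60.8% of all genes, and some of the 56 were named for this difference. Values are log2 differences of *RBS* minus Shh-MB on the deposited scale, which equal the difference between both changes from control eyes. Among genes higher in all lesions, *RBS* lesions exceeded Shh-MBs in *Cacna1e* (1.41), *Ppp2r2b* (1.35), *Mapk10* (1.13) and *Grin2b* (2.28), and Shh-MBs exceeded *RBS* lesions in *Ppp2r2c* (-2.70), *Gria3* (-0.73) and *Pdgfa* (-0.91). Among genes lower in all lesions, Shh-MBs were the lower lesion in *Fgf15* (5.48), *Nupr1* (1.20), *Thbs4* (2.22), *Tnn* (1.49), *Epha2* (1.53), *Col24a1* (3.16), *Prdm1* (3.45) and *Kdr* (2.62). With median centring the values of *Cacna1e*, *Ppp2r2b*, *Mapk10*, *Nupr1*, *Thbs4*, *Tnn* and *Epha2* were 0.56, 0.50, 0.28, 0.36, 1.38, 0.65 and 0.68, *Cacna1e* and *Thbs4* being called. In *Epha2* all 3 Shh-MBs are at the lowest value of their sample, so its size depends on the 1 added to each value.

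Genes on opposite sides of the control eyes gave 5.71 for *Lrp2*, 6.26 for *Itga2*, 4.98 for *Ptpn5*, 4.43 for *Gng4* and 5.45 for *Rasgrf2*, and -2.36 for *Mycn*, -2.63 for *Dusp5*, -1.84 for *Cdkn2c*, -1.68 for *Gli1* and -1.65 for *Rfc4*. These genes were chosen for this order, so the values are descriptions. In *Itga2* all 3 Shh-MBs are at the lowest value, in *Rasgrf2* 2 of 3. The genes that lost their separation under centring gave -1.81 for *Prkcb*, -0.69 for *Fut8*, -1.90 for *Fgf9*, -1.38 for *Cdc6* and -1.02 for *Top2a*, and *Ctnnb1* gave 0.71.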

How the results depend on the processing

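Genes called over the 8 lesions were 45 higher and 47 lower. Higher calls numbered 84 with median centring, 82 with quantile normalization and 79 when samples were scaled to total signal with the 3 most abundant genes left out, where lower calls stayed within 1.5 times. With both lesion types fitted as groups of equal weight, 129 were higher and 205 lower. The methods' t-test gave 71 and 79 with Benjamini-Hochberg and 7 and 19 with step-down Bonferroni, without their permutations, and the exact permutation test gave 79 lower. Leaving out 1 sample gave 15 to 58 higher and 26 to 50 lower. *RBS* lesions alone gave 254 and 140, Shh-MBs alone 74 and 242. Separated genes were 41 higher and 67 lower. Higher ones numbered 78, 72 and 79 under the 3 scalings, 212 for *RBS* lesions alone and 94 for Shh-MBs alone, and lower ones 122 and 277 for each lesion type alone. Leaving out 1 sample gave 41 to 54 and 67 to 77. On both scales, each lesion type alone gave 143 and 94 higher and 122 and 147 lower, and leaving out 1 sample gave 30 to 41 and 49 to 55. With median centring, Shh-MBs against control eyes gave 311 higher and 139 lower, and *RBS* lesions against Shh-MBs 181 and 319. Centring on housekeeping genes gave 43 and 46 calls and 39 and 68 separated genes. The cause of these shifts was not tested.

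With the replicate number as a block, 14 genes were called higher and 18 lower. The numbers do not pair the samples, since same-numbered samples had correlations of their deviations between -0.148 and 0.188.

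Of the named genes, *Gli1* (-0.04 over the 8) and *Ctnnb1* changed sign. *Gli1* gave 0.098 with median centring, 0.039 with total signal scaling, 0.17 with equal weights, 0.0025 with the replicate block, 1.01 in Shh-MBs alone and -0.21 to 0.12 when 1 sample was left out, with all values above 0 without 1 *RBS* lesion (0.021 to 0.12). *Ctnnb1* gave -0.23 in Shh-MBs alone. No other named gene changed direction in the alternatives run. A term for samples with *Uty* above 100, which stands for male animals and was chosen after seeing the data, gave 58 higher and 52 lower. With it the calls of *Fgf15*, *Col24a1*, *Prdm1*, *Kdr* and *Fut8* ended (adjusted *p* = 0.0709, 0.0784, 0.0835, 0.0610 and 0.0576) and *Fgf9* was called. With values under 20 set to 20 these counts were 47 and 61, and low signals limit genes such as *Cd14*, *Tnr*, *Bmp5* and *Col4a4*.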
